A study of Mus musculus with 48 samples.

Results

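Polyamines (putrescine, spermidine and spermine) are small positively charged metabolites that bind nucleic acids and support translation and growth. Cells hold them in a narrow range, and much of that control acts on protein synthesis and turnover rather than on mRNA. Ornithine decarboxylase makes putrescine, S-adenosylmethionine decarboxylase supplies the aminopropyl groups, and the synthases for spermidine and spermine attach them. Antizymes, whose synthesis needs a ribosomal frameshift that polyamines stimulate, bind ornithine decarboxylase and send it for degradation, antizyme inhibitors titrate the antizymes, and spermidine/spermine acetyltransferase marks polyamines for export or back-conversion. The mouse kidney is known for its abundant, androgen-dependent ornithine decarboxylase.

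The 8 genes described here were chosen by name for these steps: Odc1, Amd1, Srm and Sms for synthesis, Oaz1 and Oaz2 for the antizymes, Azin1 for antizyme inhibition and Sat1 for acetylation. All 8 had a row in every library, out of 12423 genes present in both assays. The libraries came from whole kidneys of male C57BL/6JRj mice aged 11 to 12 weeks with no genetic modification or treatment, kept in alternating 12 h of light and 12 h of darkness with free access to food. Kidneys were taken at 12 Zeitgeber times from ZT0 (lights on) to ZT22, every 2 h, with 2 replicate pools per time and lysates of 2 mice in each pool. Each of the 24 pools gave an RNA-seq library (mRNA abundance) and an RPF-seq library (footprints, the stretches of mRNA covered by ribosomes during nuclease digestion), 48 in all. Because whole organs were used, fewer cells of a type and less RNA per cell cannot be told apart.

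Values are RPKM over coding sequences (reads scaled by coding length and library depth), and translation efficiency (TE) is the RPF RPKM over the RNA RPKM of the same pool. Kidney identity was checked on 12 nephron markers, all of which were listed, with a summed RNA level of 10603 to 13432 RPKM. Of 15 markers of adrenal gland, fat, blood, immune cells, liver and endothelium, 8 were listed in RNA-seq, where they summed to 131 to 276 RPKM, and none of these was an adrenal marker. Relative depth ran from 0.598 to 2.036 of the median library for mRNA and from 0.701 to 1.577 for footprints. It was higher in the light phase (medians of 1.139 and 1.175) than in the dark phase (0.812 and 0.91), and its part in any daily difference was not tested. The member values rested on 90 reads (Srm, RNA-seq) to 35255 reads (Odc1, RNA-seq) per library. Between the replicates of a timepoint, the SD over genes of the log2 difference was highest for ZT10 and ZT12 in RNA-seq (0.382 and 0.353, against at most 0.311 elsewhere) and for ZT4 and ZT16 in RPF-seq (0.513 and 0.414, against at most 0.343). The replicate 2 pools of these times, called the pools that stood apart, were left out in an alternative chosen after seeing the data. A difference between replicates does not show which library is off. Member results that changed without these 4 pools are given both ways.

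Short elements of 4 of these mRNAs are shown. Those of Oaz1, Oaz2 and Amd1 are known sites at which polyamines act on the ribosome, and that of Odc1 is an upstream frame of the mRNA with the lowest TE of the 8. They were read from the GRCm38 genome and GENCODE vM21 transcripts. In the antizyme genes the first reading frame ends at a stop codon, in capitals, and the rest of the protein is reached only in the next frame. The Oaz1 element lies in a coding exon at chr10:80828283-80828312 (plus strand) and the Oaz2 element in a coding exon at chr9:65686260-65686289 (plus strand). The upstream open reading frames of Amd1 (chr10:40302155-40302175, minus strand) and Odc1 (chr12:17544921-17544947, plus strand) lie in the 5′ UTR, with their start and stop codons in capitals.
Oaz1 frameshift site: cggtggtgctccTGAtgtccctcacccacc
Oaz2 frameshift site: ctgtggtgctccTGAtgcccctcacccact
Amd1 upstream open reading frame: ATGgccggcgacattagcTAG
Odc1 upstream open reading frame: ATGacgacgtgctcggcgtataagTAG

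The stop codon of Oaz1 follows 68 codons, 29.96% of the annotated coding sequence, and that of Oaz2 follows 32 codons, 16.9%. The length behind the deposited Oaz1 values, computed from the worth of a read relative to Odc1, was 679.5 bases. That is within 4.5 bases of the 684 bases of the whole frameshifted frame with its stop codon. For Oaz2 it was 568.2 bases, against 570 annotated. Footprints before and after the frameshift were therefore summed, and an antizyme TE here does not separate ribosomes that shifted frame from those that stopped. The Amd1 upstream frame has 6 codons and starts 317 bases before the main start codon. The shorter of the Odc1 upstream frames has 8 codons and starts 362 bases before it. At least 1 upstream ATG was found in the 5′ UTR of 5 of the 8 members (Odc1 2, Azin1 3, Amd1 1, Sms 4 and Sat1 2), against 51.1% of the 11776 tested genes with a matched transcript. The 5′ UTRs of Azin1 (590 bases) and Odc1 (489 bases) were longer than those of 94.2% and 90.2% of these genes.

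Ornithine decarboxylase mRNA was the most abundant of the 8 and the least covered by ribosomes for its amount. In RNA-seq Odc1 had 543 RPKM in its lowest library, 703 at the median and 902 in its highest, above 99.0% of the 11863 tested genes. In RPF-seq it had 75.5, 134 and 197 RPKM, above 90.3% of genes. Its mean TE was 0.197 ± 0.047 (SD, n = 24 pools), below that of 97.9% of genes, and it was under the TE of the median gene in 24 of 24 pools. The median gene had a mean TE of 0.972, and the middle 80% of genes lay between 0.396 and 1.751.

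Oaz1, Azin1 and Oaz2 followed from the low end. Oaz1, the main antizyme, had 429, 488 and 608 RPKM in RNA-seq (lowest, median and highest) and 140, 173 and 191 RPKM in RPF-seq. Its mean TE of 0.347 ± 0.050 (SD, n = 24) was above that of 7.53% of genes. The antizyme inhibitor Azin1 had a mean TE of 0.468 ± 0.095 at the 14.5th percentile, with 72.9 to 119 RPKM in RNA-seq and 31.9 to 59.0 RPKM in RPF-seq. Oaz2, the second antizyme, had a mean TE of 0.580 ± 0.111 at the 22.04th percentile, with 61.0 to 121 RPKM in RNA-seq and 42.2 to 68.6 RPKM in RPF-seq.

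The remaining enzymes were nearer to the median gene. Amd1, the S-adenosylmethionine decarboxylase, had a mean TE of 0.588 ± 0.084 (22.5th percentile) and Sms, spermine synthase, 0.688 ± 0.095 (29.8th percentile). Sat1, the acetyltransferase, had a mean TE of 0.754 ± 0.119 (34.9th percentile). Only Srm, spermidine synthase, was above the median gene among the 8, with a mean TE of 1.12 ± 0.25 (60.7th percentile). It was also the scarcest, with 9.39 to 20.6 RPKM in RNA-seq and 13.7 to 21.6 RPKM in RPF-seq.

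The order of the members therefore differed between the assays. By mean RNA level it was Odc1, Oaz1, Sat1, Oaz2, Azin1, Amd1, Sms and Srm. By mean footprint level it was Sat1, Oaz1, Odc1, Oaz2, Azin1, Sms, Amd1 and Srm. In RNA-seq Odc1 was above Oaz1 in 24 of 24 pools, although their ranges overlapped between pools. In RPF-seq Oaz1 was above Odc1 in 18 of 24 pools and Sat1 above Oaz1 in 23 of 24. Neighbours that changed places most often were Amd1 and Sms, with Amd1 higher in 15 of 24 pools in RNA-seq and Sms higher in 13 of 24 in RPF-seq. On the TE scale Amd1 was above Oaz2 in only 14 of 24 pools. Every adjacent pair overlapped in TE range, but Odc1 was below Oaz1 within each of the 24 pools.

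**Figure D1:**
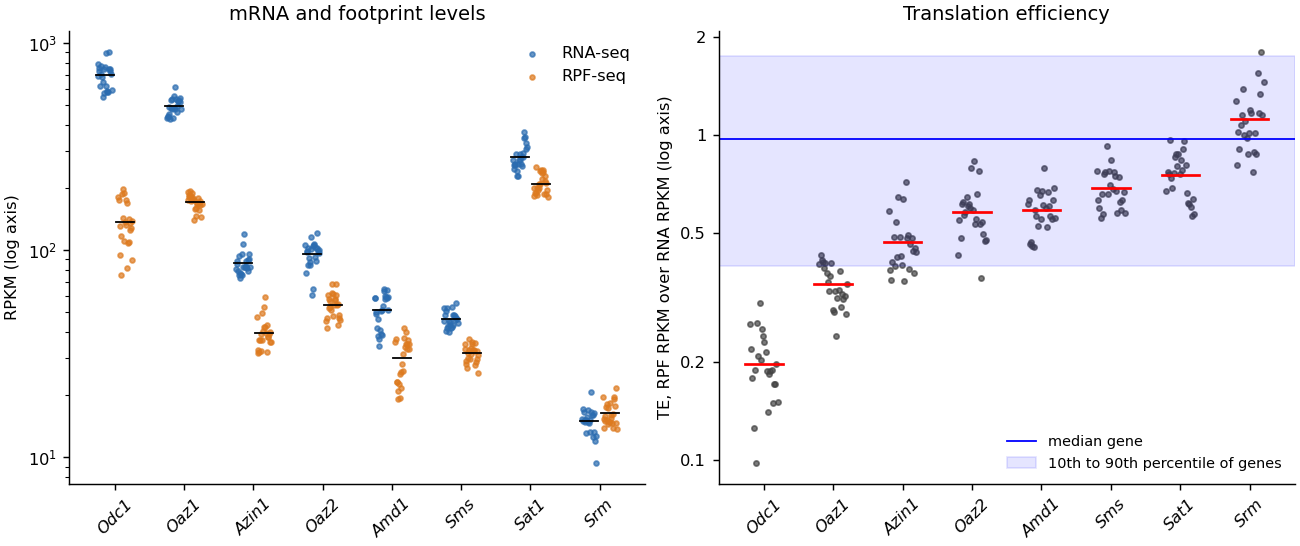
RNA-seq and RPF-seq levels (left, RPKM, log axis) and translation efficiency (right, RPF RPKM over RNA RPKM, log axis) of the 8 members, each point a pool and each bar the mean of 24 pools. Odc1 has the highest RNA level and the lowest TE, with a mean of 0.197 against 0.972 for the median gene (blue line), and Srm alone has a mean above that line.

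Daily change was tested by fitting a 24-h curve to each gene with limma, with Benjamini-Hochberg adjustment over all 11863 genes (adjusted p written FDR). A 24-h component means an FDR under 0.05, and a gene was called rhythmic in an assay where the fitted peak was also at least 1.5 times the trough. In RNA-seq 2 of 8 members had a 24-h component (48.6% of all tested genes had one) and 1 was called (10.2% of all genes). In RPF-seq 3 of 8 had a component (30.9% of genes) and 1 was called (7.58% of genes). A 24-h component in TE, which is the test of whether the footprint and RNA curves differ, was found for 3 of 8 members (17.1% of genes). The median peak-to-trough fold of the members was 1.15 for mRNA, 1.18 for footprints and 1.28 for TE, beside 1.21, 1.18 and 1.19 over all tested genes. The time labels were checked on 4 clock genes, of which Arntl peaked at 22.5 h, Nr1d1 at 7.52 h, Dbp at 10.5 h and Per2 at 14.7 h in RNA-seq.

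**Figure D2:**
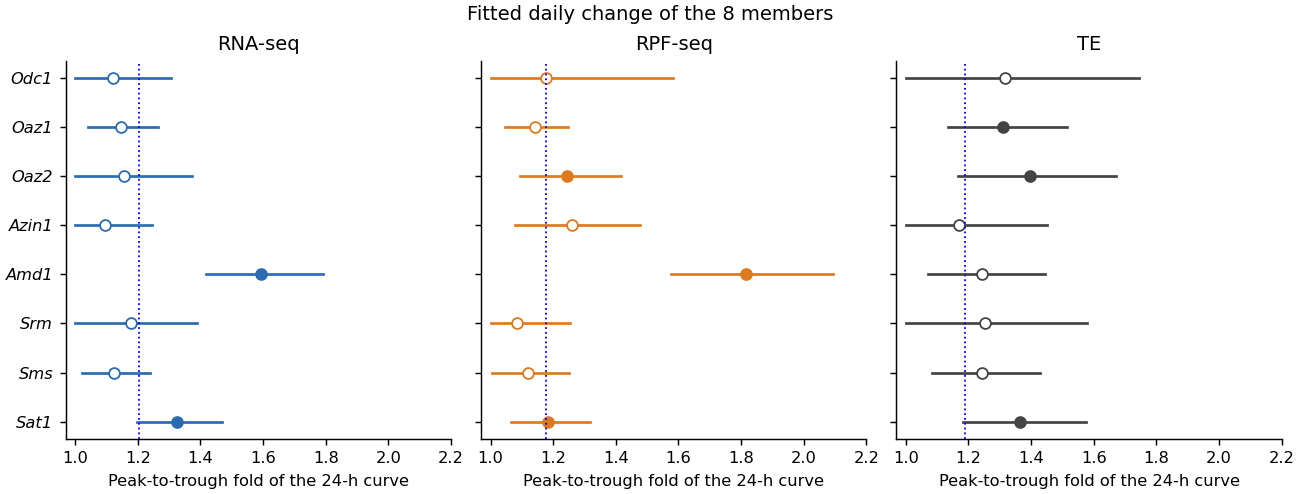
Fitted peak-to-trough fold of each member with its 95% confidence interval for mRNA, footprints and TE (lower limits stop at 1). Filled points have an FDR under 0.05 and the dotted line is the median fold of all tested genes. Amd1 is apart from the rest in RNA-seq and RPF-seq, while in TE the filled points are Oaz1, Oaz2 and Sat1.

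Amd1 rose in the dark phase in both assays. In RNA-seq its timepoint means fell to 36.5 RPKM at ZT6 and reached 62.5 RPKM at ZT16. The 12 pools from ZT14 to ZT0 lay between 51.6 and 64.9 RPKM and the 12 pools from ZT2 to ZT12 between 34.4 and 51.5 RPKM. The fitted fold was 1.59 (95% interval 1.42 to 1.79) with a peak at 19.0 ± 0.5 h (SE, n = 24 libraries) and an FDR of 2.47e-06. The ranges of the 2 windows did not overlap. All such windows of timepoints were set after seeing the values and carry no test.

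In RPF-seq the Amd1 timepoint means fell to 20.0 RPKM at ZT4 and reached 39.9 RPKM at ZT14. The pools from ZT14 to ZT0 lay between 33.2 and 42.2 RPKM and those from ZT2 to ZT12 between 19.1 and 31.5 RPKM, so the windows did not overlap here either. The fitted fold was 1.82 (1.58 to 2.09) with a peak at 17.8 ± 0.4 h and an FDR of 2.27e-06, a larger fold than that of 96.9% of genes. Both assays kept the call with any of the 24 pools left out and with either replicate series alone. The footprint level dropped steeply between ZT0 (36.1 and 37.3 RPKM) and ZT2 (23.1 RPKM in both pools), while RNA went from 58.8 and 59.0 to 50.1 and 49.3 RPKM. Amd1 TE was accordingly at its lowest at ZT2 and ZT4 (0.451 to 0.469 in 4 pools, against 0.522 to 0.791 in the other 20). The 24-h component of its TE did not pass (fold 1.24, 1.07 to 1.44, FDR 0.0896). The footprint and RNA peaks are thus not shown to differ in time, and when a 12-h term was added their order turned, with the RNA peak at 17.1 h and the footprint peak at 20.25 h.

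Genes with footprint profiles most like that of Amd1 over the 24 RPF-seq libraries were Rbm5 (Pearson r = 0.884), the clock repressor Cry1 (0.866) and Ints8 (0.856), among 11862 genes. The libraries share the light cycle, so any gene with a peak at this time correlates with it. Amd2, a protein-coding gene close to identical to Amd1, and the processed pseudogenes of Amd1 and Oaz1 were not analysed here. How reads that fit such copies equally well were assigned is not given in the sources used here, so the Amd1 and Oaz1 levels may hold reads of these copies.

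**Figure D3:**
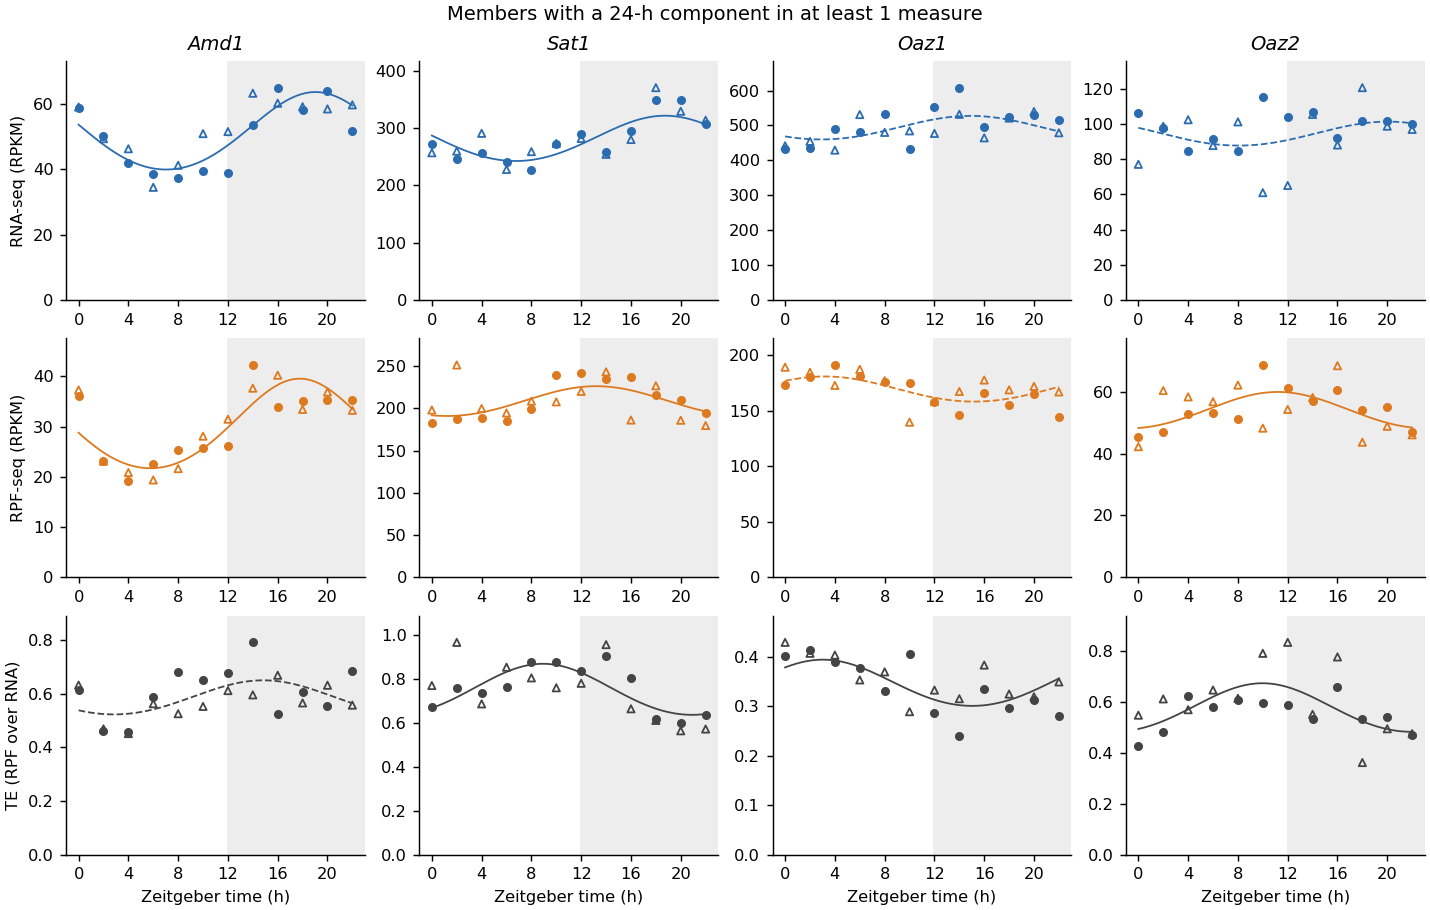
RNA-seq and RPF-seq levels (RPKM) and TE against Zeitgeber time (h) for Amd1, Sat1, Oaz1 and Oaz2, with filled circles for replicate 1, open triangles for replicate 2 and grey for the dark phase. Lines are the fitted 24-h curves, solid where the FDR is under 0.05. Amd1 rises in both assays after ZT12, whereas the Sat1 TE falls to 0.565 to 0.637 at ZT18 to ZT22, where its RNA is highest.

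Sat1 had its highest RNA from ZT18 to ZT22, but its highest footprint mean at ZT14. In RNA-seq the 6 pools of ZT18, ZT20 and ZT22 had 306 to 370 RPKM and the 18 pools of all other times 227 to 294 RPKM, without overlap. The fitted fold was 1.33 (1.20 to 1.47), which is under the 1.5-fold minimum, with a peak at 18.7 ± 0.7 h and an FDR of 0.00023. In RPF-seq the ZT18 pools had 215 and 227 RPKM, above the 204 RPKM of the median pool. Timepoint means then fell to 198 RPKM at ZT20 and 187 RPKM at ZT22, the lowest, and the highest was 239 RPKM at ZT14. The footprint fold was 1.18 (1.07 to 1.32) with a peak at 13.2 ± 1.2 h and an FDR of 0.0379. That component is near the threshold, and leaving out a single pool took it above 0.05 in 11 of 24 cases (FDR 0.00131 to 0.0788). The lowest of these FDRs came without replicate 2 of ZT2, the highest single pool (251 RPKM, against 187 RPKM in replicate 1). Without the 4 pools that stood apart the fold was 1.24 and the FDR 0.0136.

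The difference between the Sat1 curves passed the test. TE was 0.565 to 0.637 in the 6 pools of ZT18 to ZT22 and 0.665 to 0.968 in the other 18, again without overlap. The fitted TE fold was 1.37 (1.18 to 1.58) with a peak at 8.92 ± 0.85 h and an FDR of 0.012, and it stayed under 0.05 with any single pool left out (at most 0.0311). Without the 4 pools that stood apart the fold was 1.42 and the FDR 0.00974. With the 12 pools of a single replicate series the fold was 1.36 with an FDR of 0.379 (without replicate 1) and 1.41 with an FDR of 0.0971 (without replicate 2).

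Oaz1 had opposed tendencies in the assays, each just short of the threshold. Its RNA fold was 1.15 (1.04 to 1.26, FDR 0.0502) with a fitted peak at 14.9 h, and its footprint fold was 1.14 (1.05 to 1.25, FDR 0.0509) with a fitted peak at 3.19 h. In RNA-seq the 4 pools of ZT0 and ZT2 had 432 to 454 RPKM, the median of the other 20 was 505 RPKM, and their ranges overlapped. TE changed, with a fold of 1.31 (1.13 to 1.51), a peak at 3.04 ± 0.99 h and an FDR of 0.0279. The 8 pools of ZT0 to ZT6 had a TE of 0.353 to 0.429 and the other 16 of 0.240 to 0.404. Without replicate 1 of ZT14, which had the highest RNA (608 RPKM) and the lowest TE (0.240), the TE FDR was 0.0554. Without the 4 pools that stood apart both assays passed, with FDRs of 0.0193 for mRNA and 0.0117 for footprints, and the TE FDR was 0.0146.

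Oaz2 footprints had a 24-h component with a fold of 1.24 (1.09 to 1.42), a peak at 11.2 ± 1.1 h and an FDR of 0.0282. Its RNA did not pass (fold 1.15, 1.00 to 1.37, FDR 0.325). TE passed, with a fold of 1.40 (1.17 to 1.67), a peak at 9.97 ± 1.00 h and an FDR of 0.0288. The highest Oaz2 TE values, 0.791 at ZT10 and 0.834 at ZT12, both came from replicate 2, where the RNA level was 61.0 and 65.1 RPKM against 115 and 104 RPKM in replicate 1 of the same times. At these times the RNA-seq replicates differed most over all genes (SD 0.382 and 0.353), which does not show which library is off. Leaving out ZT10 replicate 2 alone gave an FDR of 0.0571. Without the 4 pools that stood apart the TE fold was 1.30 with an FDR of 0.045, and the footprint component had a fold of 1.31 with an FDR of 0.00417. The footprint component did not hold in 3 of the 24 single-pool omissions (either ZT0 pool or ZT10 replicate 1, FDR up to 0.0669).

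The 3 members with a TE component had their fitted TE peaks between 3.04 and 9.97 h, in the light phase. So did 1069 of the 2028 genes with a TE component among all those tested. The highest timepoint mean of TE was at ZT0 for Oaz1 (0.415), but at ZT14 for Sat1 (0.932) and at ZT16 for Oaz2 (0.717). With a 12-h term added Sat1 alone passed (fold 1.53, FDR 0.00646), beside 11.4% of all tested genes. Its peak was then at 12.45 h, just after lights off. Oaz1 and Oaz2 then had folds of 1.32 and 1.42 with FDRs of 0.0767 and 0.102. None of the 3 passed with timepoint as a factor or with a single replicate series, and in the latter fits 0 and 2 of the 11863 genes passed in all. With timepoint as a factor the fold and its order of times are free, and limma then found 101 of 11863 genes with a TE change. At an unadjusted p under 0.05 in that fit there were 3 of 8 members, beside 2693 of the 11863 genes.

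The other 4 members had no 24-h component at this threshold in either assay or in TE, which does not show that they were constant. Odc1 footprints had a fitted fold of 1.18 with an interval reaching 1.58 (FDR 0.641), and Odc1 RNA 1.12 with an interval reaching 1.31 (FDR 0.416). Azin1 footprints had a fold of 1.26 (1.08 to 1.48, FDR 0.06) and Azin1 RNA 1.10 (1.00 to 1.24, FDR 0.424). Without the 4 pools that stood apart the Azin1 footprint component passed, with a fold of 1.34 and an FDR of 0.0292. Srm had an RNA fold of 1.18 (FDR 0.207) and a footprint fold of 1.08 (FDR 0.639), and its RNA passed only once a 12-h term was added (FDR 0.0351). Sms had folds of 1.12 in each assay, and its TE had a fold of 1.24 (1.08 to 1.43) with an FDR of 0.0622. With the same 4 pools left out Sms RNA passed (fold 1.17, FDR 0.0113), as did Sms TE (fold 1.30, FDR 0.0244), and Sms RNA also passed without replicate 2 (fold 1.23, FDR 0.0274).

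**Figure D4:**
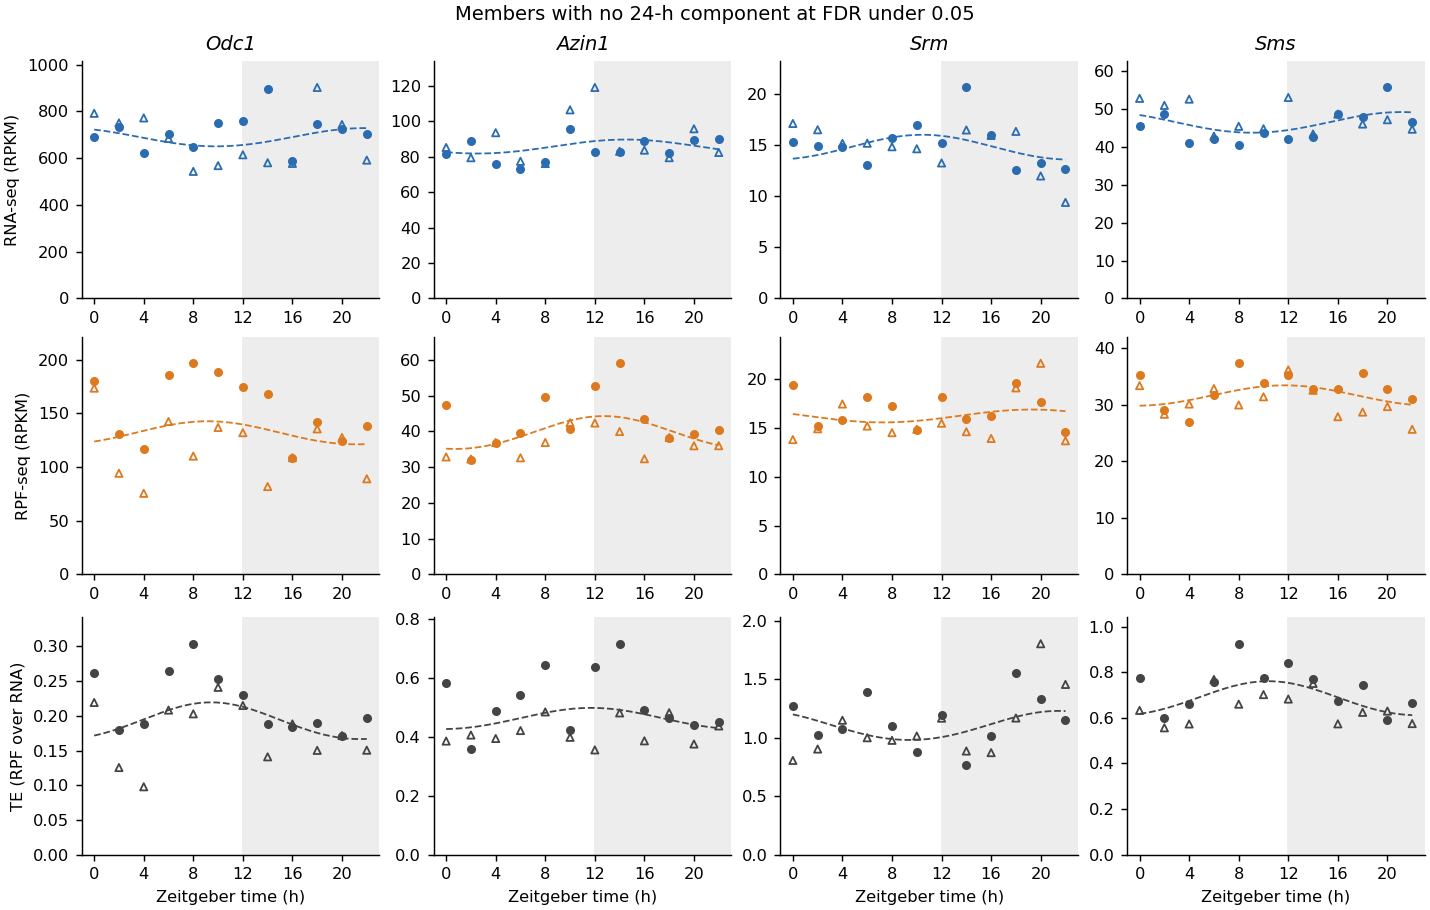
RNA-seq and RPF-seq levels (RPKM) and TE against Zeitgeber time (h) for Odc1, Azin1, Srm and Sms, drawn as for the other members, with dashed lines where the FDR is 0.05 or more. Odc1 footprints spread from 75.5 to 197 RPKM without following the fitted curve, while Sms varies little in either assay.

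Odc1 footprints were the most variable of the 8 between pools. Their coefficient of variation was 25.8%, followed by 23.6% for Amd1 footprints, which had a 24-h component. It was 8.19% for Oaz1 footprints, the lowest of the 8, and 14.02% for Odc1 RNA, while counting error at the lowest Odc1 footprint library (1784 reads) was 2.37%. After the 24-h curve was taken out, the residual SD of Odc1 footprints was 0.396 on the log2 scale. This exceeded the residual SD of 92.4% of all tested genes, and of 99.2% of the 2536 genes with a mean footprint level of at least 50 RPKM. The residual SD of Odc1 RNA was 0.201, above 68.2% of genes. Oaz1 footprints, at a similar level and depth, had a residual SD of 0.104, above only 13.3% of genes.

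Within timepoints the Odc1 pools differed widely. At ZT8 replicate 1 had 197 RPKM and replicate 2 had 110 RPKM of footprints, and at ZT14 they had 168 and 81.7 RPKM. Timepoint means of the footprints went from 177 RPKM at ZT0 to 96.3 RPKM at ZT4, but with timepoint as a factor the FDR was 0.33. At ZT4 replicate 1 had 117 RPKM and replicate 2 had 75.5 RPKM, the lowest Odc1 value. That replicate 2 library stood apart and had 162 genes at 0 RPKM, against at most 23 in any other RPF-seq library. At ZT0 (180 and 173 RPKM), ZT16 (108 and 109 RPKM), ZT18 (142 and 135 RPKM) and ZT20 (124 and 127 RPKM) the pools were close. Replicate 1 was higher at 10 of 12 timepoints, with means of 155 ± 31 and 117 ± 29 RPKM (SD, n = 12). The ratio of replicate 2 to replicate 1 was 0.751 for footprints (limma, unadjusted p = 0.00292, FDR 0.534 over all genes) and 0.942 for RNA (FDR 0.698). Azin1, which is related in sequence to Odc1, had a footprint ratio of 0.853 (unadjusted p = 0.00167, FDR 0.509) with replicate 1 higher at 8 of 12 timepoints. Kidneys were collected in 2 daily cycles per the study's methods, but the labels do not say whether the replicate number marks the cycle. Neither difference passed the adjustment. Srm and Sms footprints were also lower in replicate 2, with ratios of 0.928 (limma, unadjusted p = 0.139, FDR 0.863) and 0.929 (unadjusted p = 0.0482, FDR 0.805). Amd1 (1.01), Sat1 (0.995), Oaz2 (0.988) and Oaz1 (1.03) had footprint ratios within 3% of 1.

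**Figure D5:**
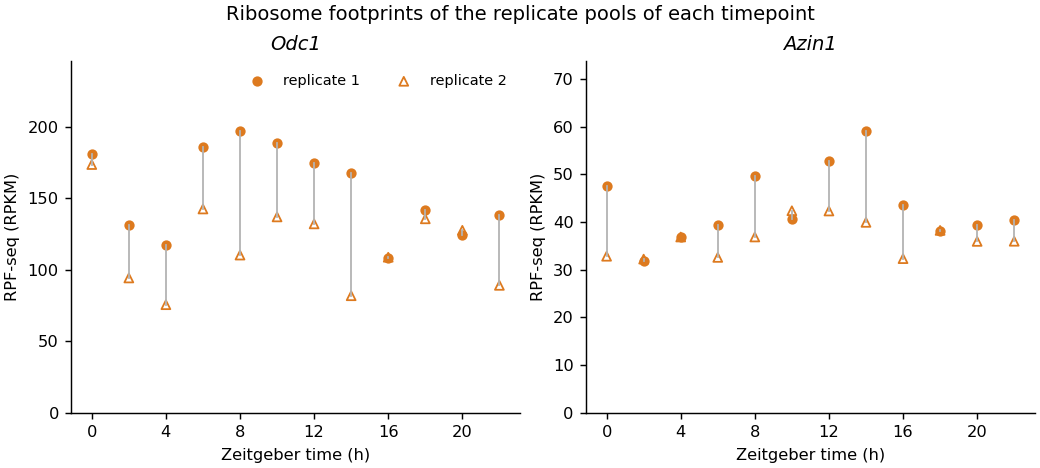
Footprint level (RPKM) of Odc1 and Azin1 in the replicate pools of each Zeitgeber time (h), with a grey line joining the pools of a timepoint. For Odc1 replicate 1 is higher at 10 of 12 times, most widely at ZT8 and ZT14, and the pools lie close together at ZT0, ZT16, ZT18 and ZT20.

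Around these 8 genes, 24 of 28 listed genes for polyamine precursors, methionine salvage, catabolism, hypusination, transport and paralogs were present in both assays. In RNA-seq 15 of 24 had a 24-h component (48.6% of all tested genes did) and 2 were called (10.2% of all genes). Both peaked in the light phase, as did 771 of the 1210 genes called in all. These were Azin2, the second antizyme inhibitor (fold 2.48, 1.84 to 3.33, peak at 7.76 h), and Mri1, a methionine salvage isomerase (fold 1.63, 1.45 to 1.84, peak at 8.83 h). In RPF-seq 7 of 24 had a component, beside 30.9% of all genes, and limma called 0. Beside 1003 of the 11863 tested genes, 2 of 24 passed the fold minimum at an unadjusted p under 0.05. These were Agmat, agmatinase (fold 1.53, FDR 0.0944), and Azin2 (fold 1.52, FDR 0.113). Both genes were low in RPF-seq, with a mean log2(RPKM + 0.1) of 1.46 and 0.827, beside 3.73 to 3.793 for the median gene over timepoints. In RNA-seq Azin2 had 1.74, beside 4.024 to 4.065. The median fold of the 24 was 1.24 for mRNA, 1.16 for footprints and 1.17 for TE.

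In TE 5 of 24 passed (20.8%, beside 17.1% of all genes), and all 5 had a fitted peak in the dark phase. Aldh9a1, an aldehyde dehydrogenase that acts on aminobutyraldehyde, had a TE fold of 1.55 with a peak at 16.1 h. Adi1, a methionine salvage dioxygenase, had 1.43 at 17.3 h, and Eif5a, the translation factor that carries the spermidine-derived residue hypusine, had 1.33 at 17.9 h. The transport genes Atp13a2, a lysosomal polyamine exporter, and Slc3a2, the heavy chain of amino acid transporters, had TE folds of 1.47 and 1.19. Over all tested genes 47.3% of TE peaks with an FDR under 0.05 fell in the dark phase. Eif5a RNA peaked at 6.23 h with a fold of 1.23 and its footprints had no component (fold 1.09, FDR 0.423).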

How the data were processed

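The authors trimmed reads with Cutadapt, filtered them by size, mapped them with Bowtie2 2.2.1 and TopHat2 2.0.11 (Ensembl transcripts, GRCm38.p2), took transcript models from Cufflinks 2.2.1, counted reads on coding sequences, normalised libraries by upper quantiles with edgeR and deposited each library as a list of genes with RPKM values. This scaling hides any daily change in total mRNA or footprints. The median gene moved by at most 0.0632 (log2) between timepoints.

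The 11863 genes whose median RPKM reached 0.5 in RNA-seq and RPF-seq alike were fitted on log2(RPKM + 0.1), so folds of low genes are understated. Sine and cosine terms with a 24-h period were tested jointly (moderated F) in limma 3.58.1 (R 4.3.3, lmFit and eBayes with a variance trend) after a check on simulated data, and TE was fitted as the difference within a pool. P-values measure the spread between pools. Whole reads were recovered from the steps of the values, and counting errors cover counting only. Positions came from GENCODE vM21, newer than the authors' annotation.

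The members and lists were chosen with earlier results of these data known. Named genes are the members, companions called in an assay or in TE, the 3 genes closest to a member called in RPF-seq, and 4 clock genes. Agmat, and the Eif5a levels, were named after their values were seen. Alternatives covered the pseudocount, RPKM minimum, other curves, AIC, quantile normalisation, replicate block and omitted pools.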

Additional observations from a re-analysis of the deposited data

Results flagged for a closer look

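The 24-h component of TE, tested with limma over all genes, passed for 3 of 8 members, beside 17.1% of all tested genes. These were Sat1 (FDR 0.012), Oaz1 (FDR 0.0279) and Oaz2 (FDR 0.0288). With a single pool left out the FDR was at most 0.0311 for Sat1, but reached 0.0554 for Oaz1 and 0.0571 for Oaz2. None of the 3 passed with timepoint as a factor or with a single replicate series. No group of samples was large enough to look for single outlying pools within a timepoint.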

How the results depend on the processing

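Amd1 was called in RNA-seq and in RPF-seq under every alternative run. No other member was called in either except Sat1 in RNA-seq with timepoint as a factor (2 members called, beside 19.3% of all genes). The number of members with a TE component was 3 in the report (17.1% of all genes passed) and 1 with 12-h harmonics added (11.4%). It was 0 with timepoint as a factor (0.851%) and 5 under AIC (53.6%). It ranged from 0 to 0 with a replicate series left out, where limma found 0 genes (without replicate 1) and 2 genes (without replicate 2) in all, and 1858 and 2545 at an unadjusted p under 0.05. It ranged from 2 to 4 with a single pool left out, where 11.5% to 19.4% of all genes passed. Without the 4 pools that stood apart, an alternative chosen after seeing the data, it was 4 (20.1% of all genes). In the replicate block fit it was 4 (18.2% of all genes), with Sms added (FDR 0.0302). Under the block 1 member each was called in RNA-seq (10.2% of all genes) and RPF-seq (7.54%), as before. The members with a footprint component went from 3 to 4, with Azin1 added (FDR 0.0222), beside 3663 and 3683 of the 11863 genes. Replicate differences of different timepoints correlated at a mean r of 0.0291 for mRNA and 0.0197 for footprints, and exceeded 0.1 in 13 and 10 of 66 pairs of timepoints (highest 0.48 and 0.185), so the numbers were not taken to pair pools across times.

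With 12-h harmonics the peaks moved to 17.1 h (Amd1 RNA), 20.25 h (Amd1 footprints), 14.5 h (Oaz2 footprints), 11.4 h (Oaz2 TE) and 12.45 h (Sat1 TE). With a replicate series left out they ranged from 18.3 to 19.6 h (Amd1 RNA), 9.38 to 12.5 h (Oaz2 footprints), 7.78 to 9.93 h (Sat1 TE), 10.4 to 13.9 h (Sat1 footprints) and 1.73 to 3.87 h (Oaz1 TE). Mean TE in replicate 1 and in replicate 2 was 0.217 and 0.176 (Odc1), 0.520 and 0.417 (Azin1), and 0.731 and 0.644 (Sms). For Amd1 it was 0.607 and 0.568, for Srm 1.15 and 1.10, and for Sat1 0.758 and 0.750. Oaz1 (0.339 and 0.356) and Oaz2 (0.553 and 0.606) were higher in replicate 2. The SD over the same 24 pools always exceeds the shift of a series mean, so it gives no test of these shifts. Of 480 single-gene results under alternatives, 426 kept their side of the threshold, 34 lost and 20 gained it. No peak of a kept component moved by over 6 h. Many of the 480 are refits that share nearly all pools or lie far from the threshold, so their count does not measure robustness. Single-pool omissions lost Sat1 footprints in 11 of 24 cases, Oaz2 footprints in 3, Oaz1 TE and Oaz2 TE in 1 each, and the other components in 0. The causes were not tested.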
